A study of Mus musculus with 8 samples.

Results

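The genes of the cytosolic ribosomal proteins and their close paralogs were followed across single mouse embryos. They were chosen by symbol alone: Rpl or Rps followed by a number and, where present, the letters a, x, y or l, together with Rplp0, Rplp1, Rplp2 and Rpsa. The rule found 85 of the 21182 genes in the table. Of these, 46 encode core proteins of the large subunit, 31 encode core proteins of the small subunit, and 7 are paralogs whose symbol ends in an l or an l with a number (Rpl3l, Rpl7l1, Rpl10l, Rpl22l1, Rpl36al, Rpl39l and Rps27l). The remaining row, Rps4y2, is an older symbol of Rps4l, a transcribed pseudogene in RefSeq, and was kept apart from the core genes. The embryos were whole embryos of the C57BL/6 background at E6.75, early in gastrulation. At this stage the epiblast is covered by visceral endoderm and adjoins the extraembryonic ectoderm. One group of 4 embryos was labelled Control and the other group of 4 was labelled Tet1/2/3 TKO, for loss of all 3 TET dioxygenases, which oxidise 5-methylcytosine in DNA. The columns of the Control embryos are named 123WT. The labels name no alleles and say nothing of litter, sex or batch. RNA was sequenced from each embryo by itself after amplification of full-length cDNA with a SMARTer kit, and levels are RPKM, reads scaled by the length of the gene and the depth of the library.

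The cytosolic ribosome is built from a large and a small subunit, each an RNA core covered by proteins that are almost all present once per particle. Cells therefore make these proteins in matched amounts, and most of the genes are transcribed at high rates in every growing cell. Their mRNAs carry a short run of pyrimidines at the very 5′ end, the TOP motif, through which mTOR signalling and the RNA-binding protein LARP1 control their translation and stability. Many of the genes have processed pseudogene copies, and some have an active paralog that is used in testis, muscle or particular cell states. The early mouse embryo grows and divides quickly at this stage and depends on ribosome supply.

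Sequences around the transcription starts are shown for some of the core genes with the smallest p in each direction and for 2 paralog pairs. This place was chosen because the mRNAs of the family carry the TOP run at their 5′ end. Each is a window of 30 bases on the gene's own strand, read from the RefSeq promoter table of build GRCm38.p6, with the longest run of C and T near the start in capitals. Only runs within 50 bases of the start were marked, so a run may go on beyond a window that ends there. A marked run need not be the TOP motif, which lies at the start itself. Counted from the start, the first base of the run lay at -47 in Rps3, -39 in Rpl22, and 41 in Rpl41 and Rps2. In Rpl38, Rplp2 and Rpl22l1 it lay at -2, -5 and 2. Rpl3, Rpl29 and Rplp1, which are also among the genes with the smallest p, had no entry in that table. The core genes lower without overlap between groups are represented by 6 windows.
Rpl38, chr11:114668568-114668597, plus strand: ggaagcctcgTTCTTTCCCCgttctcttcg
Rplp2, chr7:141447636-141447665, plus strand: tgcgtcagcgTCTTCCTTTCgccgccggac
Rps21, chr2:180257399-180257428, plus strand: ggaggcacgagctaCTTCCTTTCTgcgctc
Rpl37a, chr1:72711274-72711303, plus strand: cgcattgcgTCCCTTCCTCTTCggacttgg
Rpl41, chr10:128549119-128549148, minus strand: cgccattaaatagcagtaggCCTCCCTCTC
Rps12, chr10:23787182-23787211, minus strand: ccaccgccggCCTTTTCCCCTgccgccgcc
Core genes with positive differences are represented by the following 4 windows.
Rps2, chr17:24720083-24720112, plus strand: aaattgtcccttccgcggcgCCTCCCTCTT
Rplp0, chr5:115559466-115559495, plus strand: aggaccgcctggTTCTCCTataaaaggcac
Rpl4, chr9:64173405-64173434, plus strand: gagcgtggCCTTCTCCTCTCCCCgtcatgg
Rps3, chr7:99483739-99483768, minus strand: cgcaaaacttcaTTTCCCatgcaaaacttc
For 2 pairs of parent and paralog, the parent is given first.
Rpl22, chr4:152325679-152325708, plus strand: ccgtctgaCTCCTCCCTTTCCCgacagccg
Rpl22l1, chr3:28805499-28805528, plus strand: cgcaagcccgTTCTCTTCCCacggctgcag
Rpl39, chrX:37085173-37085202, minus strand: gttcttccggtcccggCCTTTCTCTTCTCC
Rpl39l, chr16:10170191-10170220, plus strand: aacacccactgCCTCTCCCTagctcccagg
Of the core genes, 57 had an entry in the promoter table. A run of at least 8 bases that were each C or T, on the gene's strand and within 50 bases of the start on either side, was found in 48 of them (84.2%), against 39.3% of all 27025 genes in the table. The letters CGGAAG, the core of sites bound by ETS factors, were found on either strand of the 300-base window (250 bases before to 50 after the start) in 40 of the 57 (70.2%), against 18.8% of all genes. The reverse complement, CTTCCG, can overlap a run of C and T, so the features are not independent. Among the core genes with coding sequences under 400 bases, 19 of 20 held the run, and among those of 600 bases or more, 12 of 17. The 7 paralogs were all in the table, and 5 of them held the run. These matches describe letters in a window and were not tested against the expression differences.

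Library depth, estimated from the smallest RPKM values and gene lengths, was 12.38 to 16.43 M reads in Control and 9.90 to 18.96 M in TKO-labelled embryos. Control replicate 3 had the lowest estimate in Control but the fewest genes at 0, 2186 beside 3651 to 4466 in the other Control embryos. The estimates are therefore uncertain. Tet1, one of the targeted genes, was at 5.04, 5.25, 4.93 and 5.76 RPKM in Control replicates 1 to 4 and at 15.3, 9.50, 9.21 and 11.7 RPKM in TKO-labelled replicates 1 to 4. Tet3 was at 1.80, 1.79, 1.73 and 2.08 RPKM in the Control embryos and 1.48, 1.22, 1.68 and 1.14 RPKM in the TKO-labelled ones, lower with no overlap (limma adjusted p = 0.297), and Tet2 averaged 0.725 and 0.784 RPKM. The level of Tet1, though not that of Tet3, goes against a loss of the transcript, and since a value per gene does not show which exons were read, the embryos are called TKO-labelled throughout. All directions below rest on that label. The summed level of 13 parietal endoderm markers was 159 to 316 RPKM in the Control and 264 to 939 RPKM in the TKO-labelled embryos, and all 12 that were tested had positive differences. None of the 13 was at 0 in all embryos. For Lama1, Lamb1, Lamc1, Col4a1 and Col4a2, TKO-labelled replicate 1 lay within the Control range. Lama1, for example, was at 1.895 RPKM in it beside 0.716 to 6.42 RPKM in Control. For Nid1 this embryo lay above Control, at 9.52 RPKM beside 4.69 to 8.83 RPKM. Summed markers were 670 to 893 and 672 to 1145 RPKM for the epiblast, 646 to 2215 and 1482 to 1717 RPKM for the visceral endoderm, 157 to 227 and 141 to 262 RPKM for the extraembryonic ectoderm, 17.97 to 417 and 35.9 to 398 RPKM for maternal decidua, and 0.512 to 31.4 and 0.347 to 22.6 RPKM for blood, in Control and TKO-labelled embryos in that order. The part of other cell types in the differences of the ribosomal protein genes was not tested. In whole embryos, fewer cells of a type and less RNA per cell cannot be told apart.

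Ribosomal protein genes were among the most abundant transcripts of these embryos. Of the 77 core genes, 63 were among the 100 highest genes of the table by mean RPKM, 57 lay between 1000 and 4000 RPKM, and 2 lay above that. Rpl41, which encodes the shortest protein of the ribosome, was the highest gene of the whole table, at 8104, 10040.4, 8876 and 7562 RPKM in the Control embryos and 5962, 5447, 7156 and 5757 RPKM in the TKO-labelled ones. Rps14, a small-subunit protein lost in the 5q deletion of myelodysplasia, followed among the core genes with a mean of 4002 RPKM. The next small-subunit genes were Rps18 at 3465 RPKM, Rps3a at 3356 RPKM and Rps19 at 2998 RPKM, and the next large-subunit genes were Rpl9 at 3001 RPKM, Rpl7 at 2979 RPKM and Rplp1 at 2904 RPKM. The median core gene of the large subunit averaged 1389 RPKM and that of the small subunit 1744 RPKM. Summed RPKM of the large subunit was 1.15 to 1.19 times that of the small subunit in the 8 embryos, with no separation of the groups.

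**Figure D1:**
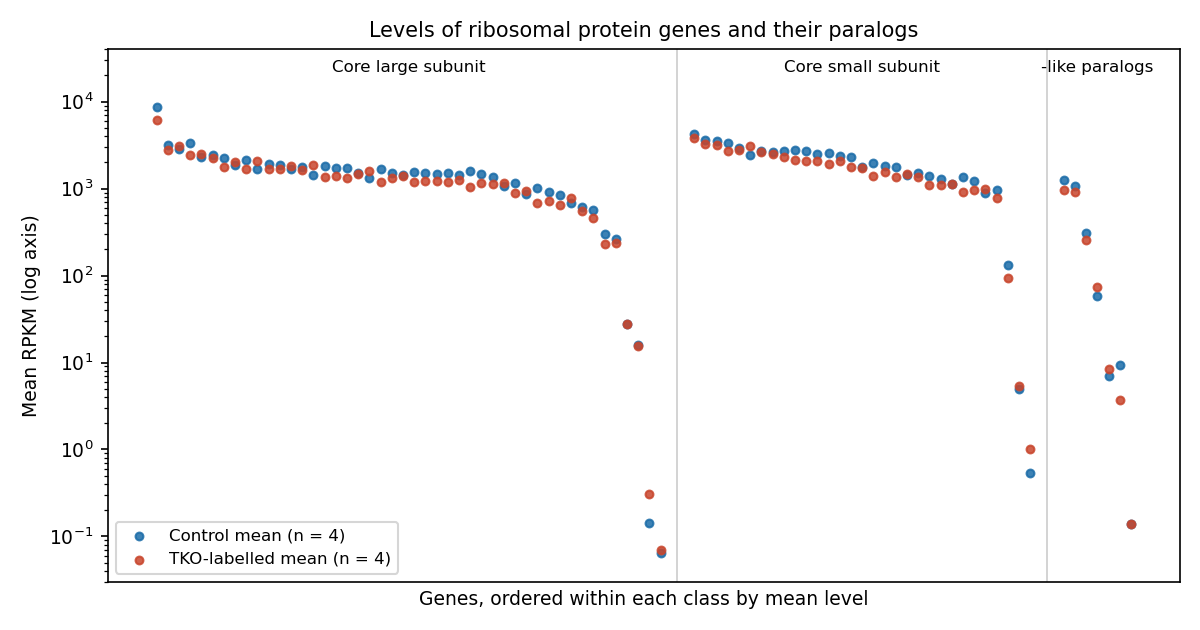
Mean RPKM of each gene in Control (blue) and TKO-labelled (red) embryos, n = 4 each, on a log axis. Genes are ordered by mean level within the core large subunit, the core small subunit and the -like paralogs. Most core genes lie near 1000 to 4000 RPKM, and a few in each subunit lie below 10 RPKM.

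A few core genes were listed far below the others, although their proteins are part of every ribosome. Rpl26 was at 0.111, 0, 0.147 and 0 RPKM in the Control embryos and 0.186, 0, 0.096 and 0 RPKM in the TKO-labelled ones. Rps23 was at 0.545, 0.241, 0.866 and 0.501 RPKM in the Control embryos and 0.182, 0.888, 1.13 and 1.84 RPKM in the TKO-labelled ones. Rps27 averaged 5.16 RPKM, Rpl30 15.7 RPKM and Rpl34 27.5 RPKM, against 113 RPKM for Rps15a, 251 RPKM for Rpl21 and 263 RPKM for Rpl22. How reads shared with near-identical copies were counted is not given in the sources used here, so the levels of these genes, and of members with processed pseudogenes in general, are uncertain. The order of the 77 core genes was otherwise stable between embryos. Spearman's rho between pairs of embryos over these genes, which is a description across genes of shared length and sequence, was 0.946 to 0.980 within groups (12 pairs) and 0.872 to 0.980 between groups (16 pairs).

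In TKO-labelled embryos the ribosomal protein genes were, for the most part, slightly lower than in Control, under each scaling tried except that by the family itself, which sets it near 0 by construction. All 85 members together held 27.1, 30.7, 27.5 and 25.5% of the summed RPKM in Control replicates 1 to 4 and 24.6, 24.6, 25.0 and 23.3% in TKO-labelled replicates 1 to 4. These shares did not overlap between groups, and Control replicate 2 stood above the others. The summed RPKM of the members, which is not divided by the total of each embryo and is the scale on which genes were tested, did overlap: it was 140128, 164356, 127120.0 and 117934 in Control and 116553, 120985, 123352 and 118396 in TKO-labelled embryos. Large-subunit core genes held 14.1, 16.2, 14.4 and 13.6% in Control and 13, 12.9, 13.1 and 12.3% in TKO-labelled embryos. Small-subunit core genes held 12.3, 13.8, 12.5 and 11.4% in Control and 11.1, 11.2, 11.3 and 10.4% in TKO-labelled embryos. By share, each TKO-labelled embryo lay below each Control embryo in both subunits. By summed RPKM the groups overlapped in both, since Control replicate 4, at 62695 for the large and 52642 for the small subunit, lay below 3 of the 4 TKO-labelled embryos in each.

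Per gene, no member passed the test. Differences were computed by limma on log2(RPKM + 1), TKO-labelled minus Control, with Benjamini-Hochberg adjustment over the 10451 genes that reached 1 RPKM in at least 4 embryos. Of the members, 81 were tested and 4 were below this level, Rpl26, Rps23 and Rpl3l among them. Across all tested genes 1 was higher at an adjusted p under 0.05 (0.00957%) and 0 were lower (0%); the gene higher was AI428936, no member. At an unadjusted p under 0.05, 1448 genes were higher (13.9%) and 376 were lower (3.6%), a balance that shifted to 841 higher and 671 lower when each embryo was scaled by its median ratio to the other embryos. Among the 81 tested members, 27 were lower at an unadjusted p under 0.05 (33.3%) and 3 were higher (Rpl3, Rps2 and Rpl7l1). The smallest adjusted p of a core gene was 0.160. Groups did not overlap for 13 members lower in TKO-labelled embryos (16%), against 194 of all tested genes (1.86%), and for 1 member higher, against 789 of all tested genes (7.55%). The log2 difference was negative for 64 of the 81 members, with a median of -0.20, while the median of all tested genes was 0.09 and 33.5% of them were negative.

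Both subunits had negative medians. Among 44 tested core genes of the large subunit the median log2 difference was -0.18, 34 were negative, and 15 were lower and 1 higher at an unadjusted limma p under 0.05. Among 30 of the small subunit the median was -0.22, 26 were negative, and 10 were lower and 1 higher. Over all 10451 tested genes, 376 were lower (3.6%) and 1448 higher (13.9%) at that p. Without Control replicate 2 the medians were -0.09 in each subunit, and 12 rather than 25 core genes were lower at an unadjusted limma p under 0.05. That count was 16 without Control replicate 1 and 12 without TKO-labelled replicate 4. Over all tested genes, 401 were lower at that p without Control replicate 2. The number was 320 without Control replicate 1 and 239 without TKO-labelled replicate 4.

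**Figure D2:**
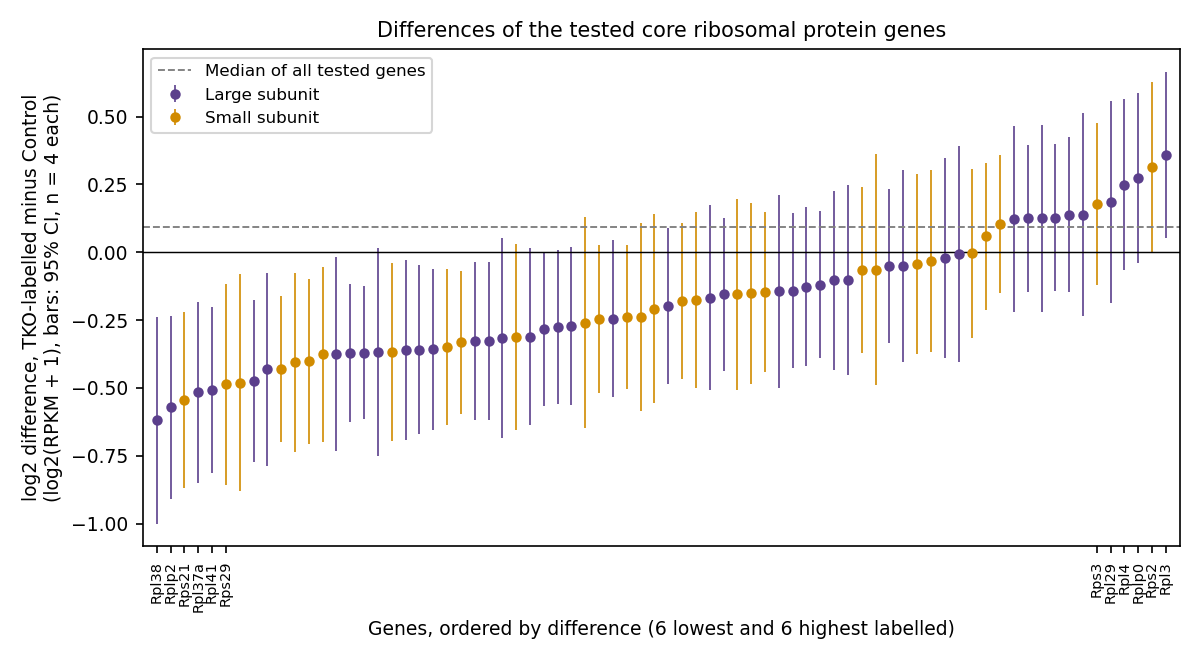
Log2 difference of each of the 74 tested core genes on the log2(RPKM + 1) scale, TKO-labelled minus Control, with limma's 95% confidence interval (n = 4 embryos each). Purple points are large-subunit and orange points small-subunit genes, and the dashed line is the median of all tested genes, 0.09. The 6 lowest and 6 highest genes are labelled. Of the 74 points, 60 lie below 0, and large- and small-subunit genes are mixed along the order.

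The stalk of the large subunit, which recruits elongation factors, showed both directions. It consists of the scaffold protein Rplp0 and the small acidic proteins Rplp1 and Rplp2. Rplp2 was at 1023, 1265, 836 and 928 RPKM in the Control embryos and 761, 614, 759.7 and 579 RPKM in the TKO-labelled ones, with a log2 difference of -0.57 (95% interval -0.91 to -0.24). Rplp1 was at 3168, 4141, 3146 and 3072 RPKM in the Control embryos and 2290.2, 2339, 2824 and 2253 RPKM in the TKO-labelled ones, with a log2 difference of -0.47 (95% interval -0.77 to -0.17). For both, every TKO-labelled embryo was below every Control embryo. Rplp0 was at 1722, 1804, 1736 and 1463 RPKM in the Control embryos and 2142, 1657, 1915 and 2489 RPKM in the TKO-labelled ones, with a log2 difference of 0.27 (95% interval -0.04 to 0.59), and its groups overlapped. The limma adjusted p was 0.160 for Rplp2, 0.173 for Rplp1 and 0.340 for Rplp0.

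Among the other large-subunit proteins, Rpl38 had the most negative difference. Rpl38 is a small protein whose loss in mice alters the axial skeleton and the translation of Hox mRNAs. It was at 1617, 2079, 1285 and 1444 RPKM in the Control embryos and 965, 1071, 1278 and 848 RPKM in the TKO-labelled ones, with a log2 difference of -0.62 (95% interval -1.0 to -0.24), and the groups did not overlap. Rpl37a, a zinc-binding protein, was at 1621, 2182, 1590.1 and 1404 RPKM in the Control embryos and 1275, 1006, 1294 and 1137 RPKM in the TKO-labelled ones, with a log2 difference of -0.52 (95% interval -0.85 to -0.18). For Rpl41, whose values are given above, the log2 difference was -0.51 (95% interval -0.81 to -0.20). Rpl12, a protein at the base of the stalk, averaged 1722 ± 134 RPKM in the Control embryos and 1333 ± 137 RPKM in the TKO-labelled ones (SD, n = 4 each), and Rpl22, an RNA-binding protein also known for its role in T cell development, 298 ± 36 RPKM in the Control embryos and 229 ± 13.6 RPKM in the TKO-labelled ones. Rpl17, which lies near the exit of the peptide tunnel, averaged 1493 ± 241 RPKM in the Control embryos and 1221 ± 37 RPKM in the TKO-labelled ones. The values of Rpl37a, Rpl41, Rpl12, Rpl22 and Rpl17 also did not overlap between groups. Limma adjusted p-values were 0.167 for Rpl38, 0.173 for Rpl37a, 0.164 for Rpl41, 0.182 for Rpl12, 0.180 for Rpl22 and 0.297 for Rpl17.

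In the small subunit, Rps21 had the most negative difference. It was at 1287, 1681, 1150.0 and 1262 RPKM in the Control embryos and 911, 898, 1085 and 781 RPKM in the TKO-labelled ones, with a log2 difference of -0.54 (95% interval -0.87 to -0.22). Rps12, a protein of the beak of the small subunit, was at 2443, 3013, 2398 and 2498 RPKM in the Control embryos and 2117, 1918, 1959 and 1683 RPKM in the TKO-labelled ones, with a log2 difference of -0.43 (95% interval -0.70 to -0.16). Rps24, which is mutated in some patients with Diamond-Blackfan anaemia, also had no overlap. It averaged 1777 ± 256 RPKM in the Control embryos and 1341 ± 155 RPKM in the TKO-labelled ones (SD, n = 4 each). Adjusted p-values from limma were 0.160 for Rps21, 0.173 for Rps12 and 0.202 for Rps24. Thus the spread between embryos was small enough to separate the groups in 12 core genes, all lower in TKO-labelled embryos, but not for any of them to pass the adjusted threshold.

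Among the 74 tested core genes, 14 had positive differences. Rpl3, a protein near the peptidyl transferase centre, was at 1523, 1690.2, 1421 and 1149 RPKM in the Control embryos and 1857, 1742, 1684 and 2090.2 RPKM in the TKO-labelled ones, with a log2 difference of 0.36 (95% interval 0.05 to 0.67). Only TKO-labelled replicate 3 lay within the Control range. Rps2, a protein at the mRNA entry of the small subunit, was at 2483, 2662, 2357 and 2305 RPKM in the Control embryos and 3077, 2492, 2917 and 3845 RPKM in the TKO-labelled ones, with a log2 difference of 0.31 (95% interval 0.00 to 0.63). For Rps2, TKO-labelled replicate 2 lay within the Control range and replicate 4 was the highest embryo. Rpl4, which reaches into the peptide tunnel, averaged 1341 ± 173 RPKM in the Control embryos and 1597 ± 222 RPKM in the TKO-labelled ones (SD, n = 4 each), Rpl29 averaged 686 ± 139 RPKM in the Control embryos and 775 ± 123 RPKM in the TKO-labelled ones, and Rps3, which also acts in DNA repair, averaged 882 ± 136 RPKM in the Control embryos and 993 ± 103 RPKM in the TKO-labelled ones. Their log2 differences were 0.25, 0.19 and 0.18, with overlapping groups. The limma adjusted p was 0.231 for Rpl3 and 0.284 for Rps2.

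The order of the differences followed the length of the coding sequence, a relation that was looked for after the values had been seen. Coding lengths, without the stop codon, came from GENCODE release M21 and were found for all 74 tested core genes, from 75 bases for Rpl41 to 1257 bases for Rpl4. Spearman's rho between coding length and log2 difference over the 74 genes was 0.74, as a description across genes that share embryos. Of 25 core genes under 400 bases, 24 had negative differences, the median was -0.38 and 9 were lower with no overlap. Of 27 genes from 400 to under 600 bases, 26 were negative, with a median of -0.24 and 3 without overlap. Of 22 genes of 600 bases or more, 10 were negative, with a median of 0.09 and none without overlap. Over all 10451 tested genes, 194 were lower without overlap (1.86%). Genes without overlap were not counted among other genes of these lengths. The one short gene with a positive difference was Rps27, which was listed at about 5 RPKM in both groups. Short core genes held 7.62, 9.29, 8.17 and 7.79% of the summed RPKM in Control replicates 1 to 4 and 6.30, 5.96, 6.89 and 5.39% in TKO-labelled replicates 1 to 4. Long core genes held 8.52, 8.89, 8.27 and 7.58% in Control and 8.67, 8.76, 8.10 and 8.68% in TKO-labelled embryos. The shares separated the groups for the short genes and overlapped for the long genes. For the short genes the summed RPKM did not overlap either, at 35986 to 49815 in Control and 27399 to 34021 in TKO-labelled embryos.

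**Figure D3:**
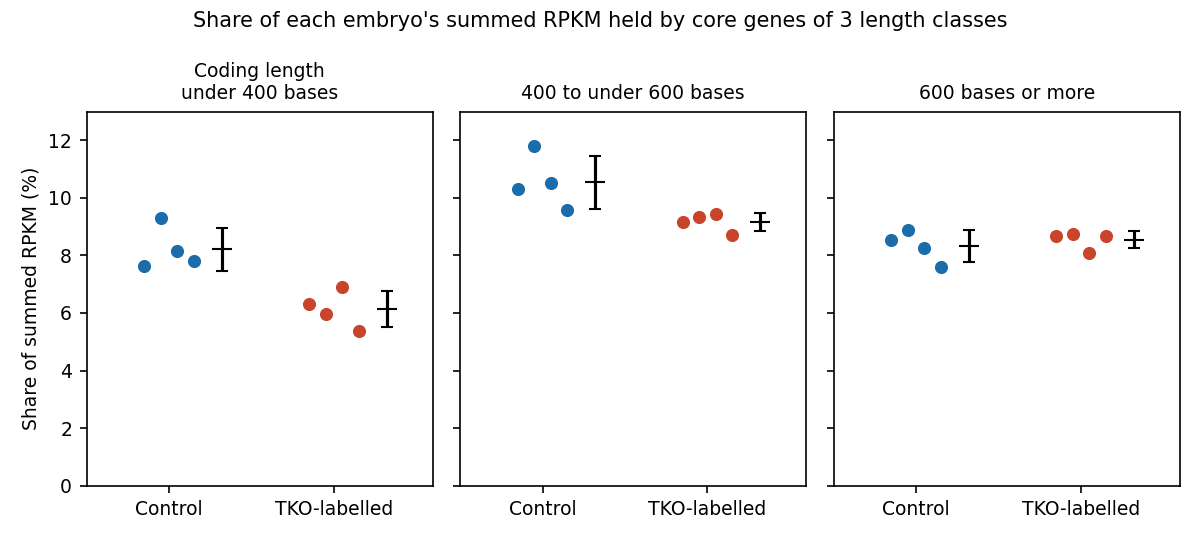
Share of each embryo's summed RPKM held by core genes of 3 classes of coding length, in percent. Each point is an embryo and the black bars are the mean ± SD (n = 4). For the short class the Control embryos lie at 7.62 to 9.29% and the TKO-labelled embryos at 5.39 to 6.89%, while the long class lies at 7.58 to 8.89% in all embryos.

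Length and difference were also related outside the family among abundant genes. Over 713 other genes with a mean of at least 100 RPKM, rho between coding length and log2 difference was 0.52, and over all 9977 other tested genes with a length it was 0.05. Over the 4736 other tested genes no longer than the longest core gene, at any level, it was 0.17. Other genes with coding sequences as short as the short core genes and a mean of at least 100 RPKM (179 genes) had a median log2 difference of -0.20, and 149 were negative. Those in the range of the long core genes at that level (257 genes) had a median of 0.16, and 52 were negative. Short core genes were thus at -0.38 beside -0.20 for other short abundant genes, and long core genes at 0.09 beside 0.16 for other long abundant genes. Levels were not matched: 57 of the 77 core genes lay between 1000 and 4000 RPKM, while the other genes needed a mean of only 100 RPKM. The difference between the family and these other genes was not tested. With the full length of the same GENCODE transcript, untranslated parts included, rho over the core genes was 0.36.

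**Figure D4:**
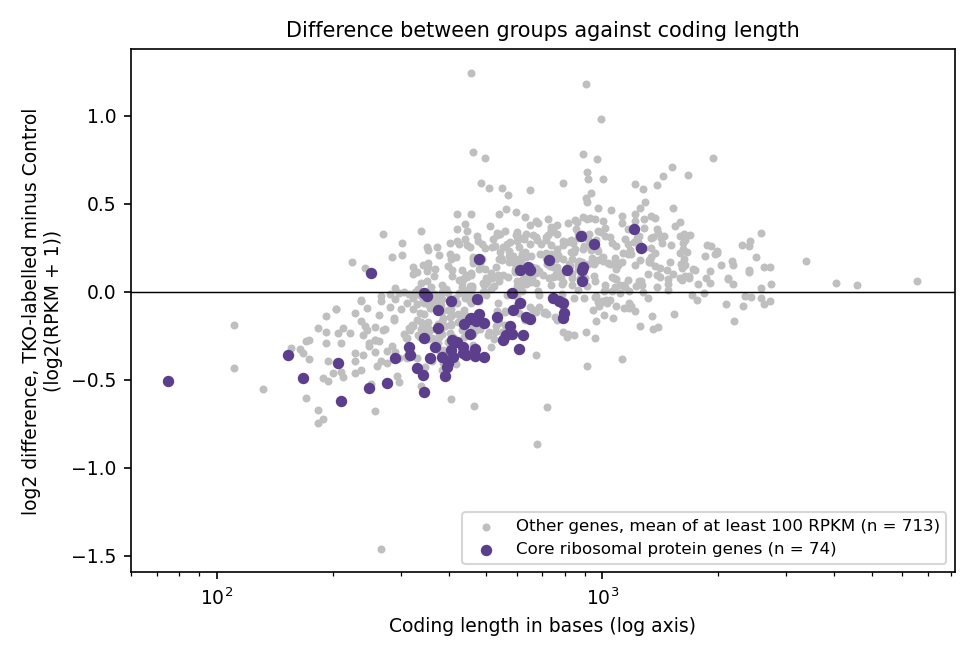
Log2 difference on the log2(RPKM + 1) scale, TKO-labelled minus Control, against coding length in bases on a log axis, for 74 core genes (purple) and 713 other genes with a mean of at least 100 RPKM (grey). Both sets slope upward, from a median of -0.38 for core genes under 400 bases to 0.09 for core genes of 600 bases or more.

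Genes known from ribosomal disease and signalling lay along the same range. Rps19, the gene most often mutated in Diamond-Blackfan anaemia, averaged 3319 ± 501 RPKM in the Control embryos and 2677 ± 439.5 RPKM in the TKO-labelled ones (SD, n = 4 each), with a log2 difference of -0.31 (95% interval -0.66 to 0.03). Rpl5 and Rpl11, which with the 5S RNA bind Mdm2 and stabilise p53 when ribosome assembly is disturbed, had log2 differences of 0.14 (95% interval -0.24 to 0.51) and -0.14 (95% interval -0.50 to 0.21). Rps6, the substrate of S6 kinase downstream of mTOR, was at 1824, 2169, 1623 and 1455 RPKM in the Control embryos and 1419, 1955, 1687 and 1823 RPKM in the TKO-labelled ones, with a log2 difference of -0.03 (95% interval -0.37 to 0.30). Rpsa, which is also a laminin receptor, had a log2 difference of 0.06 (95% interval -0.21 to 0.33). The groups overlapped for all 5 genes. Rpl10, Rpl36a, Rpl39 and Rps4x lie on the X chromosome, and their log2 differences were 0.14, -0.36, -0.36 and -0.06, with no common direction.

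The paralogs differed widely in how much they contributed beside their parent genes. Rpl22l1 was about as high as Rpl22, at 277, 358, 294 and 293 RPKM in the Control embryos and 216, 311, 277 and 229 RPKM in the TKO-labelled ones. Its level was 94.5 to 111% of that of Rpl22 in Control and 96.0 to 129% in TKO-labelled embryos. Rpl36al, an autosomal copy of the X-linked Rpl36a, stood at 77.9 to 88.9% of its parent in Control and 74.6 to 89.7% in TKO-labelled embryos. Rps27l, a p53 target, averaged 992 RPKM, far above the listed level of Rps27, whose counts are uncertain. Rpl7l1, whose product has been assigned to ribosome assembly, stood at about 2.22% of Rpl7 over the 8 embryos. Rpl39l and Rpl10l, which are used in male germ cells, were at about 0.467% of Rpl39 and 0.439% of Rpl10. Rpl3l, a paralog of striated muscle, was at 0.038, 0.084, 0.351 and 0.087 RPKM in the Control embryos and 0.379, 0.044, 0.033 and 0.107 RPKM in the TKO-labelled ones, far below 1 RPKM in every embryo. Rps4y2 was at 336, 321, 211 and 243 RPKM in the Control embryos and 396, 171, 279 and 411 RPKM in the TKO-labelled ones, 10.8% of Rps4x on average.

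Between groups, the largest difference of any member was that of Rpl39l. It was at 8.04, 8.72, 13.4 and 7 RPKM in the Control embryos and 8.01, 2.89, 1.24 and 2.54 RPKM in the TKO-labelled ones, with a log2 difference of -1.30 (95% interval -2.09 to -0.51), and TKO-labelled replicate 1 lay within the Control range. The limma adjusted p was 0.166 with all embryos and 0.0273 without TKO-labelled replicate 1, where the log2 difference was -1.68. The adjusted p lay between 0.0273 and 0.401 across the alternatives tried. Rpl7l1 was the one member higher with no overlap, at 59, 63.8, 54.2 and 53.9 RPKM in the Control embryos and 72.9, 79.9, 67.8 and 73.2 RPKM in the TKO-labelled ones. Its log2 difference was 0.34 (95% interval 0.12 to 0.57), with a limma adjusted p of 0.174. Rpl36al was at 1337, 1503, 1098 and 1075 RPKM in the Control embryos and 845, 1074, 1038 and 855 RPKM in the TKO-labelled ones, lower with no overlap although the nearest embryos of the groups almost met, and its log2 difference of -0.39 was close to the -0.36 of Rpl36a.

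Ratios of paralog to parent were compared within each embryo, as the log2 of (paralog RPKM + 1) over (parent RPKM + 1). With 4 embryos against 4, the exact two-sided permutation test over 70 assignments cannot give a p below 0.0286. Of 8 pairs, 1 reached that value before adjustment and 0 passed 0.05 after Benjamini-Hochberg adjustment. That pair was Rps27l over Rps27, whose log2 ratio differed by -0.30 (exact permutation p = 0.0286, adjusted p = 0.229), with the reservation about Rps27 stated above. The ratio of Rpl39l to Rpl39 differed by -0.94 and that of Rpl7l1 to Rpl7 by 0.22, each with an exact permutation p of 0.114 and an adjusted p of 0.286. The ratios of Rpl22l1, Rpl36al, Rpl10l and Rps4y2 to their parents differed by 0.12, -0.03, -0.12 and 0.19. The ratio of Rpl3l to Rpl3 differed by -0.36, which mostly reflects the parent, since Rpl3l lies far below the added 1 RPKM.

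**Figure D5:**
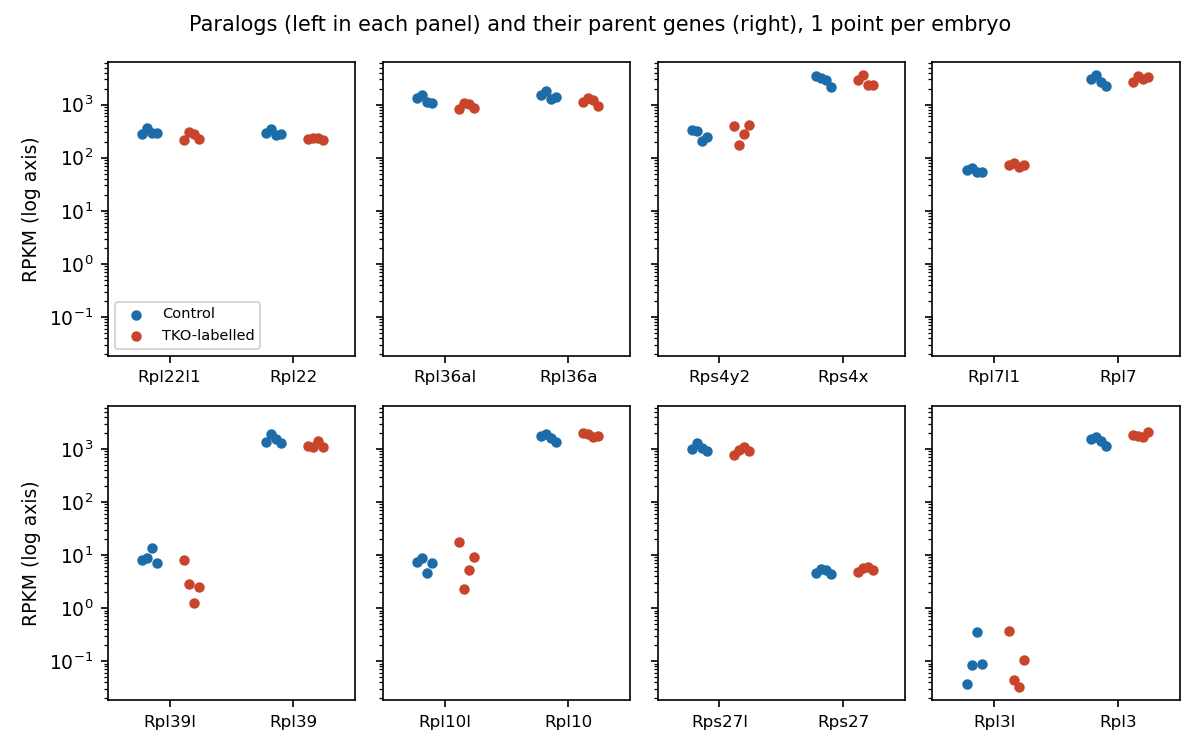
RPKM of each paralog (left in each panel) and its parent gene (right) on a log axis, with a point for each of the 4 Control (blue) and 4 TKO-labelled (red) embryos. Rpl22l1 and Rpl36al lie near their parents, Rpl39l and Rpl10l lie more than 2 log10 units below theirs, and Rps27 is listed below Rps27l.

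Ribosomal proteins whose symbols the rule does not match were compared beside the family. Fau, a ubiquitin-like protein fused to Rps30, was at 1068, 1169, 815 and 837 RPKM in the Control embryos and 772, 773, 834 and 773 RPKM in the TKO-labelled ones, with a log2 difference of -0.29. Gnb2l1, the older symbol of Rack1, had a log2 difference of 0.16. Their coding lengths are 399 and 951 bases. The limma adjusted p was 0.300 for Fau and 0.518 for Gnb2l1.

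Other genes of the translation machinery were read beside all tested genes, of which 66.5% had positive differences and 13.9% were higher at an unadjusted limma p under 0.05. No gene of the lists passed the adjusted threshold. Of 15 tested genes listed as elongation factors or other genes with TOP mRNAs, 13 were positive (86.7%) and the median log2 difference was 0.20. At an unadjusted limma p under 0.05, 4 were higher (26.7%) and 2 lower. The lower genes were Eef1b2, an exchange factor of Eef1a1, and Tpt1, and the higher ones Eef1a1, Eef1e1, Eif5a and Hnrnpa1, all but Eif5a and Hnrnpa1 named after their values were seen. The list includes Eef1e1 and Eef2k, which carry such symbols but are not elongation factors. Groups overlapped for Eef1e1. Eef1a1, which brings aminoacyl-tRNA to the ribosome, was at 2600.2, 2816, 2526 and 2518 RPKM in the Control embryos and 3217, 3281, 2952 and 4028 RPKM in the TKO-labelled ones, higher with no overlap. Eif5a, which helps the ribosome through difficult peptide bonds, averaged 447 ± 53.8 RPKM in the Control embryos and 787 ± 164 RPKM in the TKO-labelled ones (SD, n = 4 each; limma adjusted p = 0.125). Hnrnpa1 averaged 1.42 ± 0.282 RPKM in the Control embryos and 3.24 ± 0.705 RPKM in the TKO-labelled ones (limma adjusted p = 0.120), and this low level of an abundant mRNA with many pseudogenes is uncertain in the same way as that of Rps27. The 38 genes listed as initiation factors include Eif4ebp1 and Eif4ebp2, which repress initiation (log2 differences of 0.26 and 0.04). Of the 38, 32 were positive (84.2%) with a median of 0.19. At an unadjusted limma p under 0.05, 12 were higher (31.6%) and 0 lower. The examples with the smallest p were Eif2s1, the alpha subunit of eIF2, with a log2 difference of 0.69, and Eif2b1 of its exchange factor, with 0.64. Of 75 ribosome assembly factors, 61 were positive (81.3%) with a median of 0.10, and 8 were higher (10.7%, below the share of all tested genes) and 1 lower at that p, Wdr12 with a difference of 0.37 and Nop16 with 0.33 among the higher ones. The lower gene was Gnl3l, named after its value was seen, at -0.26. Of 14 genes of RNA polymerase I and its factors, 8 were positive (57.1%) with a median of 0.09, so the list stood near all tested genes. Polr1e and Taf1c were higher at that p (14.3%), with log2 differences of 0.45 and 0.35. Of 22 genes that control ribosomal protein synthesis, 20 were positive (90.9%) with a median of 0.16, and 3 were higher at that p (13.6%, near the share of all tested genes): Trp53, named after its value was seen, at 0.50, Rps6ka3, a kinase of Rps6, at 0.38, and Cnbp, which binds TOP mRNAs, at 0.33. Trp53 was at 99.2 and 93.7 RPKM in TKO-labelled replicates 1 and 4. In TKO-labelled replicates 2 and 3 it was at 50.9 and 49.9 RPKM, within the Control range of 47.2 to 52.9 RPKM (limma adjusted p = 0.272). The median of all tested genes, 0.09, is the level beside which these medians were set, and the lists were not matched for coding length or level. For other genes of 609 to 1257 bases with a mean of at least 100 RPKM, the median was 0.16.

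Outside the family, the genes whose level across the 8 embryos was most like the mean of the core genes were Tceb2, Fau, Alkbh7, Snrpd2 and Mrpl52. Pearson's r with that mean, on the log2(RPKM + 1) scale, was 0.97, 0.95, 0.93, 0.93 and 0.91. The points share library and scaling, and these 5 genes were the highest of all tested genes outside the members. Coding lengths of the 5 genes are 354, 399, 663, 354 and 363 bases.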

How the data were processed

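The authors deposited a table of RPKM values, 1 per gene symbol and embryo, for 8 single whole embryos, 4 Control and 4 TKO-labelled. The unit is taken from the table's name and its values. Per the submitters' processing notes, HTSeq and build mm9 were used. What aligner, gene models, read total and strand setting lie behind the values is not given in the sources used here. All columns matched a sample by name. Depth bears most on low genes, and no intervals for counting error were computed. Members and lists were chosen with earlier results of these data known, so counts over members are descriptions. Genes with at least 1 RPKM in at least 4 embryos were compared on the scale log2(RPKM + 1) (R 4.3.3, package limma 3.58.1, pseudocount 1, eBayes with a variance trend, two-sided, Benjamini-Hochberg over all tested genes, threshold 0.05), which understates differences of low genes. The fit was tested on simulated data. Paralog ratios were compared by exact permutation (scipy 1.17.1). The labels describe single embryos, so p-values measure how these embryos vary. Named are the highest and lowest 5 core genes by level in each subunit, the 6 smallest p in each direction, the genes without overlap, the paralogs and their parents, the stalk proteins, Rpsa, genes of ribosomal disease or signalling, X-linked members, and from each pathway list the 2 smallest p; Rps4y2 was first counted as core and was set apart after its RefSeq name was read. Coding lengths came from GENCODE M21 and promoter windows from RefSeq, both of build GRCm38. Alternatives were another pseudocount, filters, scalings, the variance trend, a replicate block and leaving out each embryo. Some items are not reported here.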

Additional observations from a re-analysis of the deposited data

Results flagged for a closer look

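In 102 groups of 4 values, the highest or lowest value was compared with its nearest neighbour, and 5 stood farther apart than Dixon's critical value of 0.829 of the group's range. Chance gives about 1 in 20. Rplp1 was at 4141 RPKM in Control replicate 2 (4141.273) and at 2824 RPKM in TKO-labelled replicate 3 (2823.889), each above the other 3 embryos of its group. Rps12 was at 3013 RPKM in Control replicate 2 (3013.331), above the other Control embryos. Rps18 was at 2960 RPKM in TKO-labelled replicate 1 (2959.659), below the other TKO-labelled embryos. Rpl3l was at 0.351 RPKM in Control replicate 3, above the other Control embryos, with all 8 embryos far below 1 RPKM.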

How the results depend on the processing

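Over all alternatives, 0 core genes passed the adjusted threshold, except 2 when each embryo was scaled by its core ribosomal protein genes. That scaling sets the family near 0 by construction: the median log2 difference became 0.022 for large-subunit and -0.018 for small-subunit core genes. At an unadjusted limma p under 0.05, 8 core genes were lower and 12 higher. Without overlap, 5 core genes were lower and 9 higher. Of all tested genes, 68 were lower and 3042 higher at that p, and 35 were lower and 1801 higher without overlap. Under this scaling 328 genes of the table were called (324 higher, 4 lower). The core genes called were Rpl3 and Rps2, and Rpl7l1 was called as well. Differences turned positive for Rpl11 (0.060), Rpl21 (0.076), Rpl30 (0.19), Rpl34 (0.18), Rpl9 (0.0077), Rps14 (0.050), Rps18 (0.057), Rps27l (0.0062), Rps3a (0.054), Rps4x (0.14) and Rps6 (0.17). Median-ratio scaling moved the median of all tested genes from 0.09 to 0.02, and turned Rpl10l to -0.056 and Rpsa to -0.027. It gave 20 core genes lower without overlap, beside 380 of all 10451 tested genes. Scaling to an equal sum gave 25 core genes lower without overlap, beside 181 of all tested genes, and 2 called genes. Without added scaling these counts were 12 and 194. With a pseudocount of 0.1 Rpl10l was at -0.018. Without a filter 0 genes were called and the rank correlation with coding length was 0.70; with a filter at 5 RPKM 2 were called.

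Leaving out 1 embryo gave medians of -0.27 to -0.09 for the large and -0.28 to -0.09 for the small subunit, a rank correlation with length of 0.69 to 0.76, 12 to 34 core genes lower at an unadjusted limma p under 0.05, 12 to 20 without overlap and 0 to 40 called genes, 40 of them (33 higher, 7 lower) without TKO-labelled replicate 1. Leaving out an embryo can only keep or raise a count without overlap, so its lower bound says nothing of stability. Over all tested genes, 242 to 397 were then lower without overlap, against 194 with all embryos. At an unadjusted limma p under 0.05, 239 to 408 of all tested genes were lower. Signs were not stable for Rpl10l (-0.39 to 0.43), Rpl30 (-0.14 to 0.12), Rpl34 (-0.11 to 0.12), Rps4x (-0.21 to 0.035), Rps4y2 (-0.032 to 0.39), Rps6 (-0.12 to 0.071) and Rpsa (-0.029 to 0.10), nor for the ratios of Rpl10l to Rpl10 (-0.49 to 0.31), Rpl36al to Rpl36a (-0.070 to 0.019) and Rps4y2 to Rps4x (-0.056 to 0.58). The causes of these shifts were not tested. Deviations of same-numbered embryos from their group means correlated over 0.1 for numbers 2 and 3 but not for 1 and 4 (Pearson's r -0.0045, 0.40, 0.26 and -0.02), and embryos 1 and 4 did not correlate best with their own number, so the numbers were not taken as pairs; with the replicate number as a block 0 genes were called and 21 rather than 25 core genes were lower at an unadjusted limma p under 0.05. With that block, 482 of all tested genes were lower at that p, against 376 without it. Counting Rps4y2 as core, chosen after seeing the data like the length relation and the counts of core genes, gave a small-subunit median of -0.21. The RPKM table holds no counts, which limits what can be said of members below 1 RPKM.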
